A study of Mus musculus with 16 samples.

Results

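Cytochrome P450 enzymes are membrane haem proteins that oxidise drugs, dietary compounds and lipids. 8 genes of this family were followed, named by their symbols in the deposited table: Cyp2c55, Cyp2c65, Cyp2c66, Cyp2c68, Cyp4b1, Cyp2s1, Cyp3a13 and Cyp1a1. They are 8 of the 94 protein-coding Cyp genes in a table of 56268 genes. They were picked with earlier results from these libraries in view, so their group differences are given as descriptions, and no p-value of theirs is used as evidence. 7 of them passed a filter of at least 1 FPKM (fragments per kilobase of gene, scaled to library size) in at least 4 libraries, and Cyp1a1 did not.

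The libraries came from mouse colonic epithelial cells in 4 groups of 4. cKO_DSS mice carried floxed Rictor and Villin-Cre and drank 3% dextran sulfate sodium (DSS), a polymer that injures the colonic lining. WT_DSS mice, whose genotype is given as Villin-Cre alone, drank the same DSS. cKO mice (floxed Rictor with Villin-Cre) and WT mice (Villin-Cre) drank plain water. All 16 libraries therefore carry the Cre transgene, whose Villin promoter is active in intestinal epithelium, so the deletion is limited to those cells. Rictor is the subunit that defines mTOR complex 2, a kinase complex in growth factor signalling. The question the design poses is how gene expression differs when Rictor is lost, at rest and during DSS colitis. The labels give no age or sex and do not say whether the 4 libraries of a group came from separate animals, so a p-value here measures only the spread between these libraries.

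A P450 enzyme sits in the endoplasmic reticulum and takes electrons from the reductase Por, at times with help from cytochrome b5. Members of the Cyp2c, Cyp2j and Cyp4 subfamilies turn arachidonic acid and other fatty acids into epoxides and hydroxy acids, while Cyp1a, Cyp2d and Cyp3a enzymes are better known for drugs and foreign chemicals. In liver and gut these genes are switched by receptors such as Ahr, Pxr (Nr1i2) and Car (Nr1i3) together with the tissue factor Hnf4a.

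Read totals recovered from the FPKM values were 13911823 to 16414914 per library. Summed FPKM of 10 colonic epithelial markers was 12883 to 14270 in cKO_DSS, 10351 to 11667 in WT_DSS, 11132 to 15310 in cKO and 9437 to 11952 in WT, with all 10 above the filter. Rictor itself had 1.92 to 2.96 FPKM in cKO_DSS, 2.82 to 4.16 in WT_DSS, 2.22 to 2.75 in cKO and 2.17 to 3.14 in WT. That value covers the whole gene, so exons left after recombination still count and it checks the genotype only in part. Summed FPKM of 4 Y-linked genes was 27.7 to 45.5 in cKO_DSS, 29.0 to 38.7 in WT_DSS, 0 to 18.2 in cKO and 0 to 12.5 in WT. Xist, the RNA of the inactive X, was at 33.2 to 105 FPKM in the water libraries, 20.5 in WT_DSS replicate 2 and at most 0.0268 in the other DSS libraries. WT replicates 1, 2 and 4, cKO replicates 1 and 2 and WT_DSS replicate 2 each held both Xist and Y-linked RNA. In cKO replicate 2, for example, Xist was at 44.7 and the Y-linked sum at 18.2 FPKM. Such libraries are not simply female or male, and the reason was not tested. DSS and these sex-linked levels cannot be told apart in the DSS comparisons. cKO_DSS replicates 3 and 4 stood apart on the second principal component, at 33.9 and 32.2 against at most 17.1 elsewhere, and results resting on them are also given without them. In these 2 libraries a gene's GC content correlated with its deviation from its mean over all libraries at a Spearman r of 0.40 and 0.39. The other cKO_DSS libraries were at -0.26 and -0.38. WT_DSS was at -0.48 to 0.02, cKO at -0.23 to 0.01 and WT at 0.19 to 0.50. WT_DSS and WT thus differed in this GC skew as well, and a fit with a GC correction was among the alternatives. cKO replicate 1 held 130 FPKM of 5 summed small intestine markers, against 4.04 to 6.81 in the WT libraries.

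Levels of the 8 genes spanned from Cyp2c55, with a median of 653 FPKM over the 16 libraries, down to Cyp1a1, which was at or next to 0. Cyp2c55 ranked 41 among all protein-coding genes and was the P450 gene with the highest median. Cyp2c65 had a median of 99.9, Cyp3a13 of 52.5, Cyp2s1 of 29.8 and Cyp2c68 of 23.4. Cyp4b1 was low at 2.42 and Cyp2c66 at 1.16. The 8 genes together made up 61.6 to 81.7% of the summed FPKM of all P450 genes in a library, and all P450 genes made up 0.235 to 0.421% of the library's total FPKM.

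The Cyp2c genes lie in a cluster on chromosome 19, and the sequences next to their start sites are shown because neighbours that look alike in sequence differed in level. Cyp2c65 and Cyp2c66 are near copies, separated by 19953 bases, yet Cyp2c65 stood 62.0 to 242 times above Cyp2c66 in FPKM, which is per length. The windows are RefSeq promoters of GRCm38.p6, from 250 bases before to 50 after the start, read 5′ to 3′ on the strand of the gene. All 8 genes matched that table. Capitals mark the 9-base element CAAAGTCCA, a core recognised by Hnf4a, or the bases aligned with it.
Cyp2c65, chr19:39060756-39061055, plus strand: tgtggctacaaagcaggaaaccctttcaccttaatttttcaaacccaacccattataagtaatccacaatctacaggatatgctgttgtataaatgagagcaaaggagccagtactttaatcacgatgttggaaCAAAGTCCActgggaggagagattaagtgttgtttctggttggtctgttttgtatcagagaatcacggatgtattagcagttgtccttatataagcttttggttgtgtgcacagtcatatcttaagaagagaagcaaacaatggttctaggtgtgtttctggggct
Cyp2c66, chr19:39113648-39113947, plus strand: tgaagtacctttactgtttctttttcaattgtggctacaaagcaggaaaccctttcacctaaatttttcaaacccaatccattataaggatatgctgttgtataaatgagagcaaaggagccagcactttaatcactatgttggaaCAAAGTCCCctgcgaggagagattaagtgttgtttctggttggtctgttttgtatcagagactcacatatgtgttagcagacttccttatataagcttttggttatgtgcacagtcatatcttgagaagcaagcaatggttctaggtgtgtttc
Cyp2c68, chr19:39741052-39741351, minus strand: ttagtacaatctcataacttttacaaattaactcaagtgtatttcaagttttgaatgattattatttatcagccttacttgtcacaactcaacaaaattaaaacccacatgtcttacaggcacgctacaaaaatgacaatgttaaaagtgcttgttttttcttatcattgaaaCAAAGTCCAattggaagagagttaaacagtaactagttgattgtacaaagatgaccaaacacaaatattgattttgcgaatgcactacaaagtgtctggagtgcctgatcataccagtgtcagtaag

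Searched on both strands, the element CAAAGTCCA was present in the Cyp2c65 and Cyp2c68 windows, beginning 116 and 77 bases before the start. It was in none of the other 6 windows, and in 156 of 32851 promoters of the same length, or 0.475%. In Cyp2c66 the aligned bases differ by A9C, counting from 1 at the 5′ end of the element and giving the Cyp2c65 base before the Cyp2c66 base. The Cyp2c65 and Cyp2c66 windows had the same base at 256 of 293 aligned positions, 87.4%, while the other 5 pairs among the Cyp2c55, Cyp2c65, Cyp2c66 and Cyp2c68 windows were 51.1 to 55.1% identical. A core of the Ahr element, TNGCGTG, was found in the Cyp2c68 window alone, on the opposite strand, and in 5.07% of all promoters. The element TTATGTAA, bound by the Dbp family and Nfil3, was in none of the 8 windows and in 0.938% of all promoters. A match shows the letters and does not show binding, and the windows cover only these 300 bases.

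Cyp2c55 (ENSMUSG00000025002, mm10 chr19:39007019-39042693, plus strand) encodes an enzyme that oxidises arachidonic acid in mouse. It had 903, 893, 677 and 826 FPKM in cKO_DSS, against 724, 628, 579 and 715 in WT_DSS. On water it had 543, 364, 712 and 372 FPKM in cKO, against 470, 417, 677 and 499 in WT. 3 of the 4 cKO_DSS libraries were above every WT_DSS library, while the water groups spread over almost the same range. The log2 fold change, on the log2(FPKM + 1) scale with its standard error, was 0.31 ± 0.20 for cKO_DSS against WT_DSS and -0.09 ± 0.20 for cKO against WT. For DSS against water it was 0.78 ± 0.20 in cKO and 0.38 ± 0.20 in WT mice. The groups overlapped in all 4 comparisons. Cyp2c55 made up 58.6 to 64.0% of all P450 FPKM in cKO_DSS, 52.0 to 58.3% in WT_DSS, 41.1 to 55.9% in cKO and 44.6 to 51.9% in WT, so its share was above that of every WT_DSS library in each cKO_DSS library.

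Cyp2c65 (ENSMUSG00000067231, chr19:39061015-39093944, plus strand) encodes an arachidonic acid epoxygenase of mouse gut. It had 146, 156, 122 and 107 FPKM in cKO_DSS, against 107, 103, 96.5 and 93.3 in WT_DSS. On water it had 106, 67.3, 110.5 and 96.3 FPKM in cKO, against 96.1, 57.9, 96.7 and 55.5 in WT. All 4 log2 fold changes were positive and small, and the groups overlapped in each of these comparisons. They were 0.39 ± 0.20 for genotype on DSS, 0.33 ± 0.20 for genotype on water, 0.49 ± 0.20 for DSS in cKO and 0.43 ± 0.20 for DSS in WT mice.

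Cyp2c66 (ENSMUSG00000067229, chr19:39113898-39187072, plus strand), its near copy, encodes another epoxygenase of the mouse gut. It had 1.39, 1.15, 1.499 and 1.59 FPKM in cKO_DSS, from 35 to 49 reads a library, against 0.437, 0.337, 0.718 and 0.517 FPKM in cKO, from 10 to 19 reads. WT_DSS had 1.67, 1.36, 1.32 and 1.03 FPKM, against 1.27, 0.452, 1.17 and 0.895 in WT. Every cKO_DSS library was above every cKO library, whereas WT_DSS and WT overlapped. The mean in cKO_DSS was 2.80 times that in cKO, with a log2 fold change of 0.68 ± 0.15, while DSS in WT mice gave 0.28 ± 0.15. Without cKO_DSS replicates 3 and 4 the value in cKO mice was 0.60. Genotype gave 0.04 ± 0.15 on DSS and -0.36 ± 0.15 on water. The longest transcripts of Cyp2c65 and Cyp2c66 were 96.2% identical, and 9.34% of the 100-base stretches of Cyp2c66 occur in another P450 transcript. How reads shared by both genes were counted is not given in the sources used here, so the low Cyp2c66 values are uncertain.

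**Figure D1:**
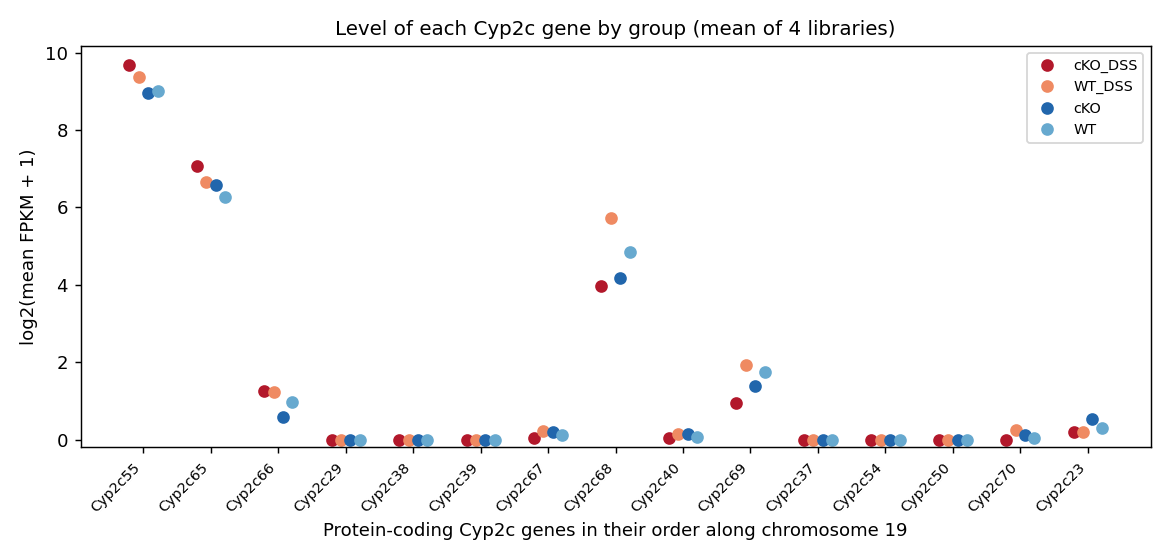
Mean level of each of the 15 protein-coding Cyp2c genes, as log2(mean FPKM + 1) of 4 libraries, in their order along chromosome 19. Colours stand for the 4 groups. Cyp2c55 and Cyp2c65 lead the cluster, Cyp2c68 is the gene whose groups spread widest, and 6 genes had no read in any library.

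Most genes of the cluster were silent or low in these libraries. Of 15 protein-coding Cyp2c genes, 5 passed the filter, namely Cyp2c55, Cyp2c65, Cyp2c66, Cyp2c68 and Cyp2c69. Cyp2c29, Cyp2c38, Cyp2c39, Cyp2c37, Cyp2c54 and Cyp2c50 had no read in any of the 16 libraries. Cyp2c67, Cyp2c40, Cyp2c70 and Cyp2c23 had reads but stayed at or below 0.783 FPKM. Several of the silent genes are known from mouse liver, and of 6 hepatocyte markers 4 were under 1 FPKM in every library, 2 of these at 0. The other 2, Ttr and Apoa2, passed the filter and were named after their values were seen. Group means of Ttr ran from 6.82 FPKM in cKO_DSS to 13.96 in cKO, and those of Apoa2 from 0.358 in cKO_DSS to 1.56 in WT. The 6 markers summed to 5.22 to 8.62 FPKM in cKO_DSS, 7.675 to 15.004 in WT_DSS, 12.99 to 21.03 in cKO and 10.39 to 15.04 in WT. In the plot of mean level along the cluster, Cyp2c68 is the expressed gene with the widest distance between groups.

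Cyp2c68 (ENSMUSG00000074882, chr19:39688834-39741054, minus strand) showed the largest genotype difference among the 7 filtered genes. It had 18.8, 16.8, 7.98 and 15.6 FPKM in cKO_DSS, against 54.8, 63.3, 43.0 and 46.7 in WT_DSS. On water it had 19.6, 11.1, 20.1 and 17.4 FPKM in cKO, against 26.8, 28.3, 29.5 and 26.7 in WT. No cKO library reached a WT library of the same drink. The mean in cKO_DSS was 0.285 times that in WT_DSS (14.8 ± 4.74 and 52.0 ± 9.02 FPKM, SD, n = 4 each), and the mean in cKO was 0.612 times that in WT (17.0 ± 4.12 and 27.8 ± 1.35). The log2 fold changes were -1.79 ± 0.22 on DSS and -0.71 ± 0.22 on water, and without cKO replicate 1 the value on water was -0.78.

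The DSS difference of Cyp2c68 was as follows in each genotype. Every WT_DSS library was above every WT library, with a ratio of means of 1.87 and a log2 fold change of 0.86 ± 0.22. cKO_DSS and cKO overlapped, with a log2 fold change of -0.22 ± 0.22. The interaction, the DSS change in cKO minus that in WT mice, was -1.08 ± 0.31 and missed the adjusted threshold. As Cyp2c68 was picked from these libraries, neither a different nor a like response to DSS in the genotypes is shown. The interaction passed only without cKO_DSS replicate 2, at -1.16, and was -0.77 without cKO_DSS replicates 3 and 4. Set against Cyp2c55 of the same library, Cyp2c68 amounted to 1.18 to 2.08 per 100 FPKM of Cyp2c55 in cKO_DSS, 6.54 to 10.1 in WT_DSS, 2.82 to 4.67 in cKO and 4.36 to 6.78 in WT. In that ratio cKO_DSS and WT_DSS did not overlap, while cKO and WT did.

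The Cyp2c68 difference on DSS kept its sign under all alternatives run, from -1.92 to -1.48, and was -1.48 without cKO_DSS replicates 3 and 4. With the Y-linked level as a covariate it was -1.79. The DSS difference in WT mice was 0.75 and no longer called without WT replicate 4 and WT_DSS replicate 2. In summed markers, absorptive colonocyte genes (10 of 10 above the filter) stood at 8256 to 10822 FPKM in cKO_DSS and 6947 to 7850 in WT_DSS. The members of that sum did not move as 1, and 20% of them were called, where 3.7% of all genes were. Clca4a was called higher (1.39 ± 0.16) and Slc37a2 lower (-1.35 ± 0.25), the latter at 26.8 FPKM in cKO_DSS and 69.6 in WT_DSS. Both were named after their values were seen. Slc26a3 and Guca2b were lower without a call, and the rest were higher. Crypt genes (8 of 8) stood at 74.9 to 98.0 in cKO_DSS and 89.3 to 105.5 in WT_DSS. Matrix markers, small in sum, did not overlap between the genotypes on DSS either, at 8.08 to 10.1 in cKO_DSS and 11.7 to 14.5 in WT_DSS, and were lower in cKO_DSS as Cyp2c68 was. The part of these markers in the Cyp2c68 difference was not tested. As these are bulk libraries, fewer cells that express a gene and less RNA per cell cannot be told apart.

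**Figure D2:**
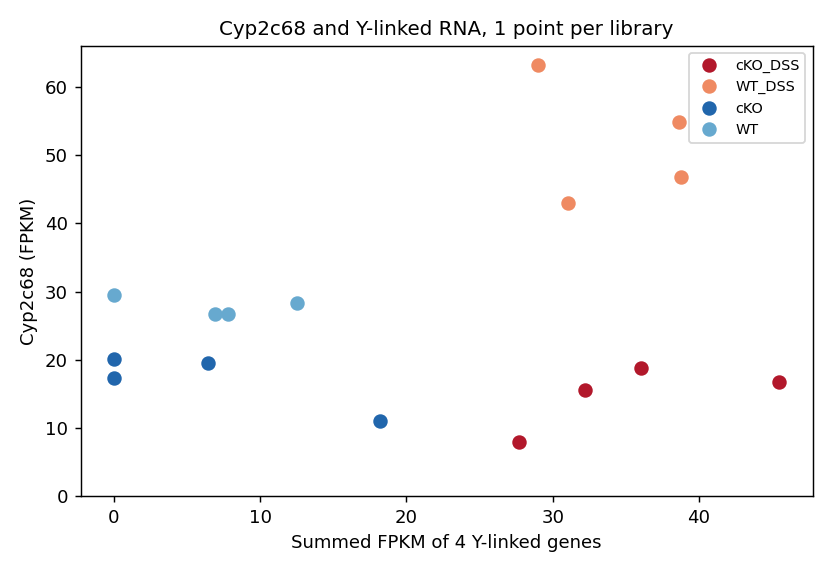
Cyp2c68 in FPKM against the summed FPKM of 4 Y-linked genes, 1 point per library, coloured by group. The 4 cKO_DSS libraries lie at 7.98 to 18.8 FPKM and the 4 WT_DSS libraries at 43.0 to 63.3 over much the same Y-linked range, whereas the water libraries lie to the left.

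The plot of Cyp2c68 against Y-linked RNA shows that the genotypes on DSS covered much the same range of that measure while the DSS and water groups did not. They were not matched in Xist, at 20.5 FPKM in WT_DSS replicate 2 and at most 0.0268 in the other DSS libraries. That library also had the highest Cyp2c68, at 63.3 FPKM. Without it the ratio of means for cKO_DSS against WT_DSS was 0.307. Cyp2c68 also has close relatives in the cluster. Its longest transcript was 98.0% identical to that of Cyp2c40, 97.0% to Cyp2c67 and 96.4% to Cyp2c69, and 19.8% of its 100-base stretches occur in another P450 transcript. Of those relatives, Cyp2c69 passed the filter, with 0.943 ± 0.11 FPKM in cKO_DSS and 2.80 ± 1.70 in WT_DSS (SD, n = 4 each). Its log2 fold change of -0.87 ± 0.26 missed the threshold, with an adjusted p of 0.0774 by limma. Cyp2c40 and Cyp2c67 stayed under the filter, and the split of reads among these genes is uncertain.

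Cyp4b1 (ENSMUSG00000028713, chr4:115624725-115647723, minus strand) encodes an enzyme that hydroxylates fatty acids and activates some plant toxins. It had 2.60, 0.992, 2.11 and 3.16 FPKM in cKO_DSS, against 1.02, 1.57, 0.675 and 1.19 in WT_DSS. On water it had 5.43, 5.72, 5.73 and 2.23 FPKM in cKO, against 8.78, 3.95, 15.2 and 1.90 in WT. The WT libraries on water ranged widest, and even the lowest of them was above every WT_DSS library. The mean in WT_DSS was 0.150 times that in WT, with a log2 fold change of -1.72 ± 0.42. WT replicate 3 weighs on it, and without that library the ratio was 0.229 and the log2 fold change -1.31. In cKO mice the DSS value was -0.84 ± 0.42 and the groups overlapped. With the Y-linked level as a covariate the value in WT mice was -1.44 and no longer called. Genotype gave 0.57 ± 0.42 on DSS and -0.32 ± 0.42 on water, with overlap in both.

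Cyp3a13 (ENSMUSG00000029727, chr5:137892932-137921619, minus strand) belongs to the drug-oxidising Cyp3a subfamily. It had 45.5, 60.0, 35.5 and 40.4 FPKM in cKO_DSS, against 53.1, 65.3, 49.4 and 50.9 in WT_DSS. On water it had 52.0, 65.8, 69.2 and 63.8 FPKM in cKO, against 56.2, 42.2, 55.0 and 34.0 in WT. The genotype difference pointed in opposite ways on the 2 drinks, and the groups overlapped in each comparison made. It was -0.28 ± 0.17 on DSS and 0.43 ± 0.17 on water, and the interaction was -0.72 ± 0.25. DSS gave -0.48 ± 0.17 in cKO and 0.24 ± 0.17 in WT mice. Without cKO_DSS replicate 2, the highest of its group, the DSS difference in cKO mice was -0.62 and the interaction -0.86.

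Cyp2s1 (ENSMUSG00000040703, chr7:25802475-25816913, minus strand), a P450 found mainly in epithelia outside the liver, hardly varied. Its lowest and highest libraries were 28.1 and 33.9 FPKM, a ratio of 1.21. Group means were 30.1 ± 2.14 in cKO_DSS, 28.8 ± 0.54 in WT_DSS, 32.0 ± 1.69 in cKO and 30.3 ± 2.04 in WT (SD, n = 4 each). All 4 log2 fold changes were between -0.09 and 0.08, with a standard error of 0.07.

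Cyp1a1 (ENSMUSG00000032315, chr9:57687928-57703824, plus strand), the enzyme most strongly induced through Ahr, had no read in 15 libraries and 1 read in WT_DSS replicate 4, or 0.0247 FPKM. A count of 0 allows up to 3 reads, which is 0.0631 to 0.0791 FPKM depending on the library, for counting error only. No group difference was detectable at this depth.

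**Figure D3:**
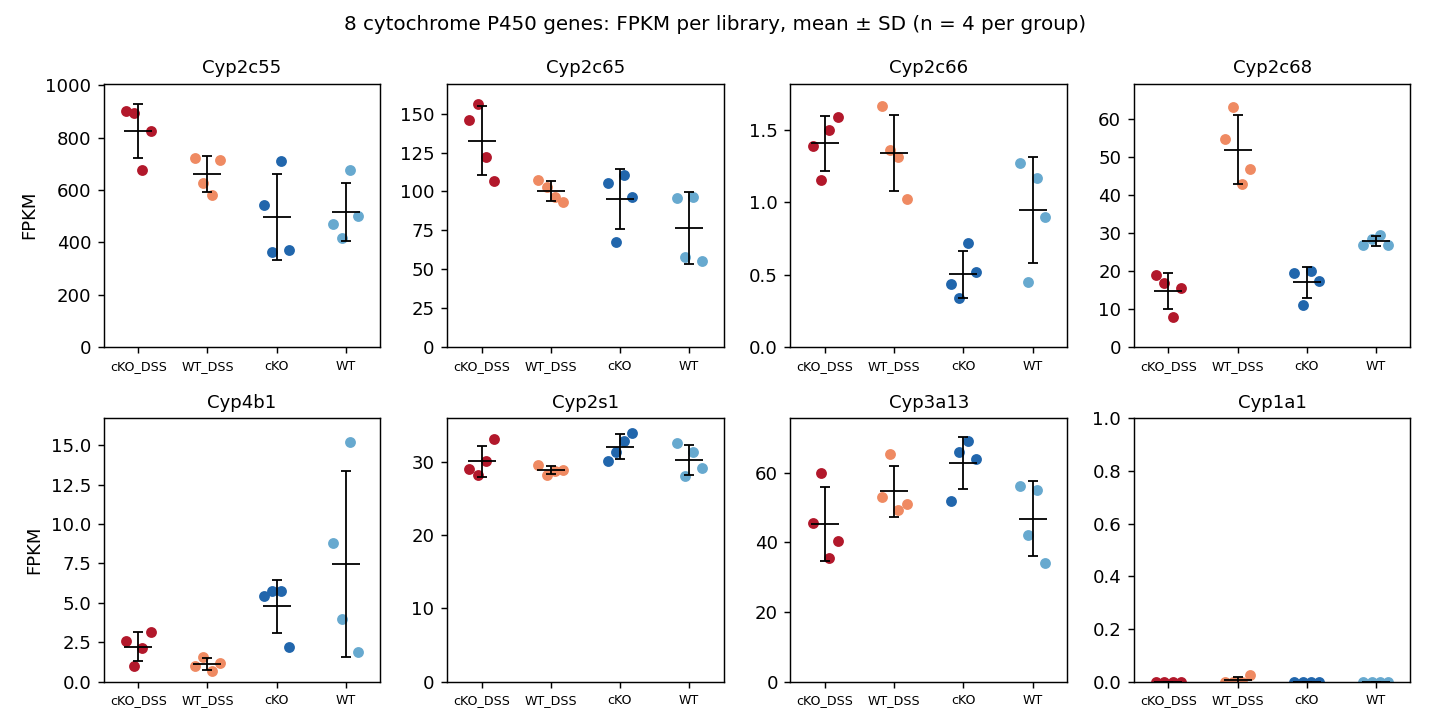
FPKM of the 8 P450 genes in each library, 1 panel per gene with its own axis from 0. Points are libraries, the horizontal bar is the group mean and the error bar the SD (n = 4). Cyp2c68 is at 43.0 to 63.3 in WT_DSS and at 7.98 to 18.8 in cKO_DSS, while Cyp2s1 stays between 28.1 and 33.9 throughout.

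**Figure D4:**
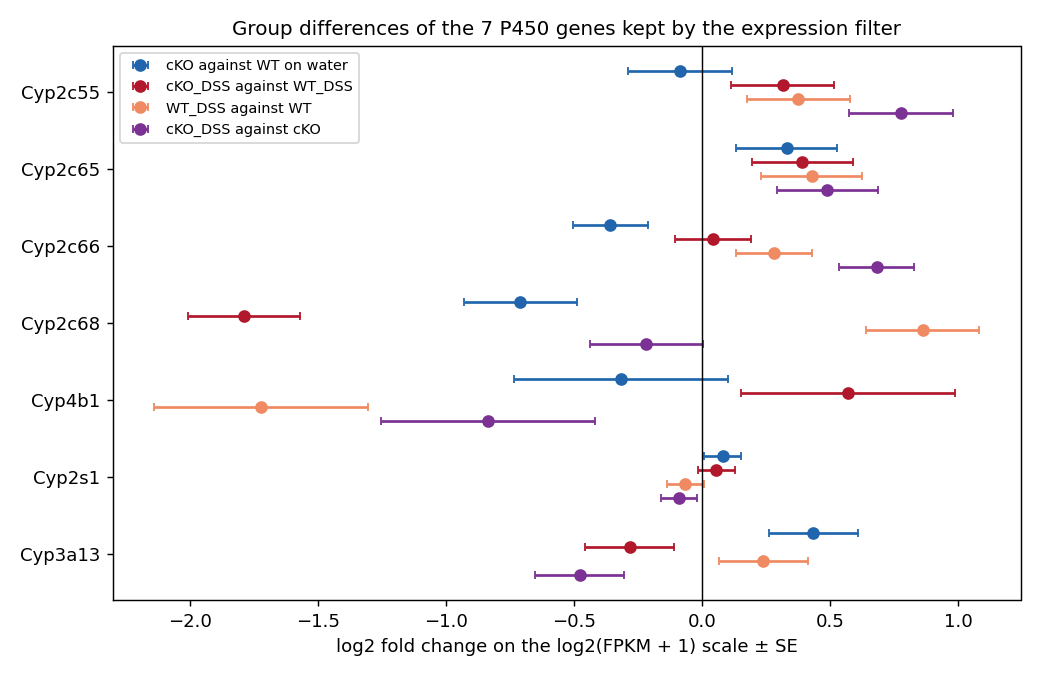
Log2 fold change on the log2(FPKM + 1) scale, with its standard error, for the 7 filtered P450 genes in 4 comparisons. Cyp2c68 reaches -1.79 for cKO_DSS against WT_DSS and 0.86 for WT_DSS against WT, and Cyp4b1 reaches -1.72 for WT_DSS against WT.

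The plot of levels by library and that of fold changes show that no common direction ran through the 7 filtered genes. For cKO_DSS against WT_DSS, Cyp2c68 alone had an adjusted p under 0.05, 1 of 7 where 3.7% of all genes did, and 1.67% as lower. For cKO against WT the count was 0 of 7 by limma, where the share over all genes was 0.0905%, with 3 at an unadjusted p under 0.05 (18.1% of all genes) and 0 with voom on recovered reads. For WT_DSS against WT it was 2 of 7, Cyp2c68 higher and Cyp4b1 lower, where 28.5% of all genes were called, 15% as higher and 13.5% as lower. For cKO_DSS against cKO it was 2 of 7, Cyp2c55 and Cyp2c66, both higher, where 14.7% were called and 8.07% as higher. For the interaction it was 0 of 7 by limma, where the share was 0.151%, with 2 at an unadjusted p under 0.05 (23.2% of all genes) and 0 with voom. Because the genes were picked from these libraries, nothing is read from these counts. The Cyp2c55 call in cKO mice was lost without cKO replicate 2 or 4, with values of 0.65 and 0.66.

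Counted by libraries alone, groups did not overlap for 1 of 7 genes on DSS and 1 of 7 on water between genotypes, both Cyp2c68. Over all genes 10% and 15.5% did not, and 4.88% and 7.65% with the lower values in cKO_DSS and cKO. For DSS it was 2 of 7 in WT mice, Cyp2c68 and Cyp4b1, where 28.3% of all genes did not (15.5% higher and 12.8% lower). In cKO mice it was 1 of 7, Cyp2c66, where 19.1% did not, 10.1% with the higher values in cKO_DSS. The comparisons share groups, so they are not independent. The median log2 fold change of the 7 genes was 0.06 for cKO_DSS against WT_DSS and -0.09 for cKO against WT, beside -0.01 and 0.01 over all genes.

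Across the 16 libraries, Cyp2c55 varied with Cyp2c65 at a Pearson r of 0.75 and with Cyp2c66 at 0.72, but with Cyp2c68 at 0.10. After removing group means, r was 0.60 with Cyp2c65, 0.41 with Cyp2c66 and 0.59 with Cyp2c68. Cyp2c68 thus moved with Cyp2c55 inside the groups, while the 2 genes differed between groups in their order. Libraries share depth and composition, so these are descriptions.

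The genes whose log2 values were most like each of the 7 over the 16 libraries were found by Pearson r. For Cyp2c68 they were Slc28a3 at 0.90 and Klb at 0.90, and after removing group means 0.50 and 0.77. For Cyp2c55 they were 4931406C07Rik at 0.91 and Tiam2 at 0.88, and for Cyp2c65 Atp2b1 at 0.90 and Mgam2-ps at 0.90. For Cyp2c66 they were Ubap1 at 0.93 and Gcg at 0.88, and for Cyp4b1 Vamp2 at 0.89 and Gramd1b at 0.89. For Cyp3a13 they were Rpap3 at 0.91 and Pibf1 at 0.89. Cyp2s1, the least variable, reached 0.82 with Mir7090 and 0.79 with Gm26180.

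The other 86 P450 genes are given for comparison. 27 of them had no read in any library, 39 had reads but did not pass the filter, and 20 were tested. Cyp2d34 and Cyp4f14, with medians of 83.7 and 40.8 FPKM, led them, ahead of Cyp4f40 at 34.2, Cyp2j6 at 21.5 and Cyp4f16 at 19.1.

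For cKO_DSS against WT_DSS, 3 of the 20 fell (15%, where 1.67% of all genes did), 0 rose, and their median log2 fold change was -0.15. Cyp2d12 averaged 3.85 ± 0.44 FPKM in cKO_DSS and 7.27 ± 1.26 in WT_DSS (log2 fold change -0.76 ± 0.11, limma adjusted p = 0.00273). Cyp2f2, which bioactivates inhaled compounds in mouse lung, averaged 3.11 ± 0.62 and 7.43 ± 2.16 (-1.01 ± 0.22, limma adjusted p = 0.0248). Cyp2d10 averaged 12.4 ± 3.18 and 18.9 ± 0.80 (-0.60 ± 0.15, limma adjusted p = 0.0432). All 3 were lower in cKO_DSS, as Cyp2c68 was. Other genes of the 20 pointed higher without a call, up to 0.74 ± 0.29 for Cyp2w1. None of the 3 calls held without cKO_DSS replicates 3 and 4, where Cyp2d12 was at -0.71. Cyp2f2 also lost its call without WT_DSS replicate 1 or 2 or cKO_DSS replicate 3, and Cyp2d10 lost it without any single library other than WT replicate 4 or cKO_DSS replicate 1, with values over all lost calls from -1.02 to -0.92 for Cyp2f2 and from -0.61 to -0.44 for Cyp2d10. Cyp2d10 shares 14.8% of its 100-base stretches with other P450 transcripts and Cyp2d12 3.79%, so their split of reads is uncertain.

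For cKO against WT, 0 of the 20 passed limma's adjusted threshold and 0 with voom, with 4 at an unadjusted p under 0.05, reached by 18.1% of all genes. Cyp2f2 averaged 3.03 ± 1.10 FPKM in cKO and 6.21 ± 1.16 in WT (-0.87 ± 0.22, limma adjusted p = 0.124), and Cyp2d12 5.03 ± 0.33 and 7.09 ± 0.80 (-0.42 ± 0.11, limma adjusted p = 0.124). The groups of both genes did not overlap, and neither did those of Cyp2d10. That was 3 of 20, all lower in cKO, where 15.5% of all genes did not overlap, 7.65% with the lower values in cKO. For the interaction, 0 of 20 passed by limma and 0 with voom, with 5 at an unadjusted p under 0.05, reached by 23.2% of all genes. Cyp2r1, a vitamin D hydroxylase, had the smallest p, at -0.56 ± 0.21, followed by Cyp20a1 at -0.61 ± 0.25.

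Of these 20 genes, Cyp4f14, Cyp2d26 and Cyp2d34 were called lower on DSS in both genotypes. Cyp2c55 and Cyp2c65, the P450 genes with the highest medians, pointed higher in both. Summed FPKM of all P450 genes averaged 1203 ± 65.1 in WT_DSS and 1077 ± 162 in WT. It averaged 1322 ± 122 in cKO_DSS and 1031 ± 182 in cKO. For WT_DSS against WT, 5 of 20 fell and 3 rose, 40% where 28.5% of all genes were called, 13.5% as lower and 15% as higher. Cyp4f14, which hydroxylates leukotriene B4 and other fatty acids in mouse, averaged 36.6 ± 4.34 FPKM in WT_DSS and 66.7 ± 16.04 in WT (-0.83 ± 0.16, limma adjusted p = 0.00323). Cyp2d26 averaged 13.6 ± 1.41 and 25.4 ± 8.38 (-0.81 ± 0.19, limma adjusted p = 0.00883), and Cyp2d34 79.2 ± 4.90 and 107.9 ± 12.4 (-0.44 ± 0.11, limma adjusted p = 0.00962). Cyp39a1, an oxysterol hydroxylase, rose to 12.2 ± 1.02 in WT_DSS, against 8.32 ± 0.93 in WT (0.51 ± 0.13, limma adjusted p = 0.0129). For cKO_DSS against cKO the same 3 genes Cyp2d26, Cyp4f14 and Cyp2d34 fell, by 0.81, 0.60 and 0.40 on the log2 scale (limma adjusted p = 0.0121, 0.0211 and 0.0216), and none rose; 6.64% of all genes fell.

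With the Y-linked level as a covariate, the calls of Cyp4f14 and Cyp2d26 in WT mice were lost, at -0.52 and -0.65, and so were those of Cyp2d26 and Cyp4f14 in cKO mice, at -0.62 and -0.20. Cyp39a1 lost its call with that covariate, after GC correction and without WT replicate 4 and WT_DSS replicate 2 (0.32 to 0.54), and Cyp2d34 in WT mice without that pair of libraries (-0.38). In cKO mice the Cyp4f14 call was also lost without cKO replicate 2, 3 or 4 or cKO_DSS replicate 1 (values of -0.58 to -0.53), and the Cyp2d34 call without cKO replicate 1 or 2 (-0.40 to -0.31).

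**Figure D5:**
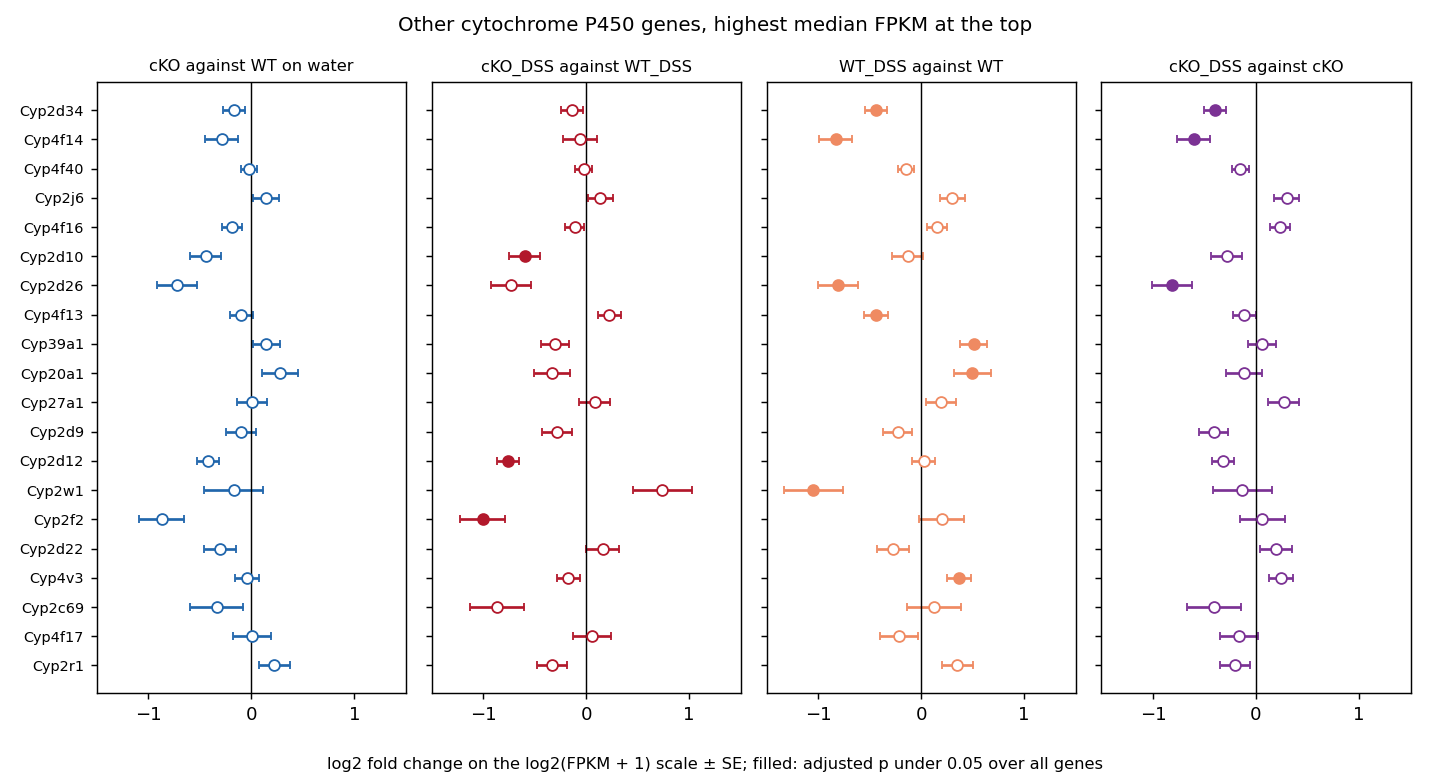
Log2 fold change with its standard error for the 20 other tested P450 genes in 4 comparisons, ordered by median FPKM. Filled points have an adjusted p under 0.05 over all genes: 3 for cKO_DSS against WT_DSS, 8 for WT_DSS against WT, 3 for cKO_DSS against cKO and 0 for cKO against WT.

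The electron donors and haem genes that P450 enzymes depend on were tested next, as the plot of other P450 genes covers the enzymes alone. Of 13 such genes 12 were tested. For cKO_DSS against WT_DSS 0 were called by limma and 2 with voom, with 3 at an unadjusted p under 0.05, reached by 20.2% of all genes. For cKO against WT 0 were called by limma and 0 with voom, with 3 at an unadjusted p under 0.05, reached by 18.1% of all genes. Por, the reductase, averaged 38.6 ± 9.16 FPKM in cKO_DSS and 24.5 ± 5.41 in WT_DSS (0.63 ± 0.18, limma adjusted p = 0.0621), and the cytochrome b5 gene Cyb5b 78.2 ± 7.12 and 101 ± 10.3 (-0.36 ± 0.10, limma adjusted p = 0.0508). On water the smallest p were those of Fdxr (-0.36 ± 0.13) and Hmox1 (-0.46 ± 0.17). For WT_DSS against WT 2 rose and 4 fell, 50% where 28.5% of all genes were called. Por averaged 24.5 ± 5.41 and 37.4 ± 5.92 (-0.60 ± 0.18, limma adjusted p = 0.0223), Cyb5r1 3.08 ± 0.59 and 4.79 ± 0.62 (-0.51 ± 0.10, limma adjusted p = 0.00329), and the haem oxygenase Hmox2 6.19 ± 1.06 and 8.88 ± 0.91 (-0.46 ± 0.13, limma adjusted p = 0.0203). Alas1, the rate-limiting enzyme of haem synthesis, rose in both genotypes on DSS. It averaged 38.6 ± 2.25 in WT_DSS and 29.3 ± 3.52 in WT (0.39 ± 0.11, limma adjusted p = 0.0212), and 46.3 ± 6.60 in cKO_DSS and 28.8 ± 3.51 in cKO (0.66 ± 0.11, limma adjusted p = 0.00169). In cKO mice Cyb5b and Cyb5r1 fell by 0.41 and 0.40 (limma adjusted p = 0.0111 and 0.0150), and both calls were lost with the Y-linked covariate (-0.31 to -0.30 for Cyb5b and -0.43 to -0.35 for Cyb5r1 over both) and without cKO_DSS replicates 3 and 4. In WT mice single libraries ended calls: WT replicate 3 and WT_DSS replicates 2 and 4 for Por, WT_DSS replicates 1 and 4 for Hmox2, and WT replicate 2 and WT_DSS replicates 1 and 4 for Alas1. Over all lost calls the values were -0.67 to -0.28, -0.46 to -0.37 and 0.34 to 0.45, the -0.28 being Por after GC correction, and the Por and Hmox2 calls were also lost with the Y-linked covariate.

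Of 26 receptors and regulators of P450 genes, 21 were tested. For cKO_DSS against WT_DSS 1 was called, 4.76% where 3.7% of all genes were. It was Cebpb, which averaged 16.9 ± 6.44 FPKM in cKO_DSS and 6.47 ± 2.50 in WT_DSS (1.24 ± 0.29, limma adjusted p = 0.0325), with overlap between the groups. It is a factor of acute-phase and differentiation genes. The call was lost without WT_DSS replicate 1, 2 or 4 or cKO_DSS replicate 3 or 4, with values of 0.79 to 1.24 over all lost calls, 0.79 being that without cKO_DSS replicates 3 and 4. Hnf4a, whose element is marked in the promoters above, averaged 180 ± 27.6 in cKO_DSS, 163 ± 24.0 in WT_DSS, 167 ± 5.89 in cKO and 184 ± 13.7 in WT, with log2 fold changes for genotype of 0.14 ± 0.12 on DSS and -0.14 ± 0.12 on water. 0 regulators were called on water by limma and 0 with voom, with 4 at an unadjusted p under 0.05, reached by 18.1% of all genes. Their smallest p were those of Ppard (-0.35 ± 0.09, limma adjusted p = 0.124) and Tiparp (0.35 ± 0.15).

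For WT_DSS against WT 5 of the 21 regulators rose and 5 fell, 47.6% where 28.5% of all genes were called. Factors of the daily rhythm were among those of the smallest p. Dbp averaged 0.884 ± 0.95 FPKM in WT_DSS and 14.6 ± 10.99 in WT (-2.72 ± 0.55, limma adjusted p = 0.00402), Tef 2.73 ± 1.42 and 14.2 ± 8.71 (-1.78 ± 0.45, limma adjusted p = 0.0119), and their antagonist Nfil3 11.2 ± 1.56 and 4.63 ± 3.35 (1.27 ± 0.26, limma adjusted p = 0.00432). WT_DSS and WT overlapped for Dbp and Tef. WT replicate 4 had 1.52 FPKM of Dbp, below WT_DSS replicate 2 at 2.26, while the other WT libraries had 13.8 to 28.4. This is the pair left out together among the alternatives. Tiparp, an Ahr target, rose by 0.64 ± 0.15 (limma adjusted p = 0.00668) while Cyp1a1 stayed at 0 or 1 read. For cKO_DSS against cKO 2 rose and 3 fell, 23.8% where 14.7% of all genes were called, among them Nfil3 (2.03 ± 0.26, limma adjusted p = 0.000284), Tef (-2.57 ± 0.45, limma adjusted p = 0.00207), Dbp (-3.08 ± 0.55, limma adjusted p = 0.00224) and Vdr (-0.36 ± 0.11, limma adjusted p = 0.0371). The labels give no hour of collection. With the Y-linked level as a covariate Dbp, Tef and Nfil3 in WT mice were at -2.30, -1.31 and 1.02 and no longer called, and in cKO mice Dbp and Tef at -2.54 and -1.97. The Vdr call was lost without any of cKO replicates 1, 3 and 4 or cKO_DSS replicates 1 and 2, and with that covariate (-0.37 to -0.26 over all lost calls).

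Of 22 genes that make or clear eicosanoids, lipid mediators formed by P450, cyclooxygenase and lipoxygenase enzymes, 10 were tested. For cKO_DSS against WT_DSS 1 of 10 was called, 10% where 3.7% of all genes were. Hpgd, which inactivates prostaglandins, fell in cKO_DSS to 104 ± 25.9 FPKM, against 174 ± 29.9 in WT_DSS (-0.75 ± 0.19, limma adjusted p = 0.0398). That call was lost without cKO replicate 1, 2 or 4, WT_DSS replicate 1, 2 or 4, or cKO_DSS replicate 3 or 4, and the value was -0.44 without cKO_DSS replicates 3 and 4. For WT_DSS against WT 1 of 10 was called, 10% where 28.5% of all genes were. Ephx1, which opens epoxides, fell in WT_DSS to 3.77 ± 1.48, against 7.44 ± 0.75 in WT (-0.87 ± 0.25, limma adjusted p = 0.0207). The Ephx1 call was lost without WT replicate 4 or WT_DSS replicate 1 or 4, and with the Y-linked covariate (-1.07 to -0.72 over all lost calls). On water and for cKO_DSS against cKO 0 of 10 were called by limma, with 2 and 0 at an unadjusted p under 0.05, reached by 18.1% and 28.7% of all genes, and 0 with voom in both. The smallest p on water were those of Ephx4 (0.41 ± 0.17) and Ephx1 (-0.57 ± 0.25), and in cKO mice on DSS those of Ephx2 (-0.23 ± 0.12) and Ptges2 (0.18 ± 0.12).

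For the interaction, 0 of 12 electron donor and haem genes, 0 of 21 regulators and 0 of 10 eicosanoid genes passed by limma, with 2, 8 and 2 at an unadjusted p under 0.05, reached by 23.2% of all genes, and 0 in each list with voom. The smallest p belonged to Por (0.89 ± 0.25, limma adjusted p = 0.0955), Cebpb (1.46 ± 0.41, limma adjusted p = 0.0951) and, among the eicosanoid genes, Pla2g4a (-0.47 ± 0.18) and Hpgd (-0.66 ± 0.26).

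Markers of other cells and of the crypt differed between groups and are given beside these lists. Summed leukocyte markers were 10.7 to 14.7 FPKM in cKO_DSS, 10.1 to 15.1 in WT_DSS, 5.77 to 9.08 in cKO and 6.32 to 9.08 in WT, with 5 of 10 above the filter. Fibroblast, matrix and endothelial markers were 8.08 to 10.1 in cKO_DSS, 11.7 to 14.5 in WT_DSS, 4.73 to 6.39 in cKO and 3.83 to 5.22 in WT, with 4 of 10 above the filter. Both sums were thus higher on DSS in either genotype, and both were small beside the epithelial sum. The matrix sum was also lower in cKO_DSS than in WT_DSS. There 1 of 4 tested markers was called, 25% where 3.7% of all genes were. It was Sparc, picked after its values were seen (log2 fold change -0.69 ± 0.17, limma adjusted p = 0.0398). Summed crypt base and cycling markers were 74.9 to 98.0 FPKM in cKO_DSS and 124 to 138 in cKO. They were 89.3 to 105.5 in WT_DSS and 94.2 to 112 in WT. For cKO_DSS against cKO 7 of 8 were called, all lower, 87.5% where 6.64% of all genes fell. For WT_DSS against WT 3 of 8 were called, all lower, 37.5% where 13.5% of all genes fell. The part of all these markers in the differences was not tested.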

How the data were processed

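RNA sequencing libraries of mouse colonic epithelial cells were used, 4 in each of 4 groups, grouped by the labels. Per the labels' protocols, adapter-bearing, ambiguous and low-quality reads had been discarded. The submitters' processing notes name featureCounts 1.5.0-p3, DESeq2 1.20.0 and mm10; aligner, annotation and strand setting: not given in the sources used here. The authors deposited FPKM and gene lengths for 56268 genes. FPKM times length gave whole reads within 0.05 for all values, and so the totals per library.

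Values were analysed as log2(FPKM + 1) for the 13255 genes that reached 1 FPKM in 4 or more libraries. A model with 4 group means was fitted to all 16 libraries with limma 3.58.1 in R 4.3.3 (eBayes with a trend), and two-sided p-values were adjusted by Benjamini-Hochberg over all kept genes within each of 5 comparisons. The fit was also run on counts simulated with a common spread for all genes. Those counts lacked the GC skew and sex-linked differences of these libraries, so that run does not show how the fit performs here. Fold changes on this scale understate those of low genes. Errors are SD over 4 libraries or SE of the fit.

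The 8 genes and all lists were chosen with earlier results of these data known. Beyond the 8, the genes named were, per list and comparison, up to 4 called genes with the smallest p, or the 2 smallest p where none was called, besides the 2 most alike per gene and the 5 other P450 genes with the highest median. Cyp2c69, Cyp2w1, the called or non-overlapping genes that are only listed, and Hnf4a were named after their values were seen. Sequences come from RefSeq and transcripts from GENCODE M21.

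Alternatives were voom on recovered reads, quantile normalization, a replicate block, a pseudocount of 0.1, dropping the filter or raising it to 5 FPKM, fits on the 8 libraries compared, GC correction, a Y-linked covariate, and fits without single libraries or the pairs named.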

Additional observations from a re-analysis of the deposited data

Results flagged for a closer look

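Cyp4b1 in cKO on water had 1 library far from the others of its group. Replicate 4 was at 2.23 FPKM, while the other 3 libraries lay between 5.43 and 5.73. The gap to the nearest library was 0.912 of the range of the group, above the 95% critical value of Dixon's test for 4 values. Among groups with no true outlier such a gap arises by chance in about 1 of 20. The 7 filtered genes were looked at in 4 groups each, except Cyp2c66 in cKO, which stayed under 1 FPKM. Without that library the log2 fold change of Cyp4b1 for cKO_DSS against cKO was -1.09, in place of -0.84.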

How the results depend on the processing

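No called value changed sign under any alternative run. Of the 8 P450 genes, the count called for cKO_DSS against WT_DSS was 1 and for cKO against WT 0 in every alternative run. For WT_DSS against WT the count of 2 became 1 without WT replicate 4 and WT_DSS replicate 2, where Cyp2c68 lost its call. It also became 1 with the Y-linked covariate, where Cyp4b1 lost its call, and it stayed at 2 when single libraries were left out. For cKO_DSS against cKO the count of 2 became 1 with no filter, with the 5 FPKM filter, with quantile normalization, on the 8 libraries alone and without cKO_DSS replicates 3 and 4, and 3, with Cyp3a13 added, after GC correction and without WT replicate 4 and WT_DSS replicate 2. It ranged from 1 to 3 without single libraries. For the interaction the count of 0 ranged from 0 to 2, the 2 being Cyp2c68 and Cyp3a13 without cKO_DSS replicate 2.

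Of the other 20 P450 genes, the 3 called for cKO_DSS against WT_DSS became 1 with no filter, 1 on the 8 libraries alone, 1 without WT replicate 4 and WT_DSS replicate 2 and 0 without cKO_DSS replicates 3 and 4, and ranged from 1 to 4 without single libraries, with 1 without WT_DSS replicate 1, WT_DSS replicate 2 or cKO_DSS replicate 3. The 8 called for WT_DSS against WT became 3 without WT replicate 4 and WT_DSS replicate 2, 4 after GC correction and 1 with the Y-linked covariate, and ranged from 6 to 9. The 3 called for cKO_DSS against cKO became 1 with the Y-linked covariate and ranged from 1 to 4, with 1 without cKO replicate 2. The cause was not tested.

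Over all genes, 491 were called for cKO_DSS against WT_DSS, 33 without cKO_DSS replicates 3 and 4, and 3778 for WT_DSS against WT, 863 with the Y-linked covariate. Same-numbered libraries deviated together with a correlation of -0.199 to 0.300, above 0.1 in some pairs but not in all, so the numbers are taken as names. With a replicate block the members called were 0 for cKO against WT, 1 for cKO_DSS against WT_DSS, 2 for WT_DSS against WT, 2 for cKO_DSS against cKO and 0 for the interaction, and over all genes 12 became 2 for cKO against WT. Genes near 1 FPKM, such as Cyp2c66, rest on few reads. The interaction could not be fitted on 8 libraries alone.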
